A study of Mus musculus with 2 samples.

Results

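The 10 genes examined here belong to activin, follistatin and TGF-beta signalling and were measured in sorted mouse hepatocytes after acetaminophen injury. They were taken by symbol from the gene count table, and 10 of 10 were found among its 20823 listed genes. They are Fst, the activin subunit genes Inhba, Inhbb, Inhbc and Inhbe, the ligand gene Tgfb1, the receptor genes Tgfbr1 and Tgfbr2, and the signal transducer genes Smad3 and Smad7. The APAP library came from hepatocytes sorted 24 h after acetaminophen (APAP) had been given at 300 mg/kg, intraperitoneally and in saline. The Control library came from hepatocytes of mice that received no agent. Both were made from livers of C57BL6J mice aged 8 weeks, by collagenase perfusion and flow sorting of 20000 cells with high surface Cxcr2, after cells with CD31 (endothelial) or CD45 (immune) had been removed. Each group was 1 library, and how many animals it pooled, if more than 1, is not stated in the labels used here.

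Activins are dimers of inhibin beta subunits. They bind a pair of type II and type I receptors, whose kinases phosphorylate Smad2 and Smad3, and these enter the nucleus with Smad4. TGF-beta uses the same Smads through Tgfbr2 and Tgfbr1. Follistatin, the product of Fst, wraps around activin and keeps it from its receptors, and Smad7 is a feedback inhibitor that blocks the type I receptor. In the liver, activin A and TGF-beta are known as brakes on hepatocyte growth after tissue loss, and Inhbc and Inhbe are subunit genes expressed mainly in hepatocytes.

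The libraries held 51009898 counts for APAP and 52419864 for Control. Levels are given in CPM, counts scaled by the trimmed mean of M-values (TMM) to an effective total of 1000000, so that 1 count was worth 0.0174 CPM for APAP and 0.0215 CPM for Control. Folds are APAP over Control, each with a 95% interval that covers counting error only, because 1 library per group allows no test of the conditions and no replicate check. A gene was called higher or lower when it differed by at least 2-fold, the interval left out 1, and the counts of both libraries summed to at least 20. All 13 hepatocyte markers were counted in both libraries, with albumin (Alb) at 45856 CPM for APAP and 29194 CPM for Control. Cxcr2 itself had 2 counts in the APAP library and 0 in the Control library, so the surface protein of the sort was not mirrored by its transcript at this depth.

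Of the 10 genes, Fst and Inhbb were called higher in the APAP library, 0 were called lower, and the other 8 were within 2-fold. Among all 14096 genes with enough counts, 10.7% were called higher and 7.09% were called lower. By the interval alone, 5 of the 10 lay wholly above 1 (Fst, Inhbb, Inhbc, Inhbe and Smad7), 3 lay wholly below 1 (Tgfbr1, Tgfbr2 and Smad3), and those of Inhba and Tgfb1 held 1. The shares over all tested genes were 34.1% above and 33.0% below, so this split was near the background. The median log2 fold of the 10 genes was 0.20, beside 0.02 over all tested genes.

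Inhbc and Inhbe, the most abundant of the 10 genes per length in both libraries, lie next to each other on chromosome 10 with 0 annotated genes between them, on the minus strand. Their upstream sequences are shown because both genes had modest folds in the same direction. The Inhbc stretch is the 250 bases before the RefSeq start (GRCm38.p6, minus strand, chr10:127370549-127370798), with a SMAD box, CAGACA, in capitals. The Inhbe stretch is 30 bases of the upstream window (GRCm38.p6, minus strand, chr10:127352011-127352040), with capitals for a match on the opposite strand to TGATGNAA, letters bound by ATF4, the transcription factor of the integrated stress response.
Inhbc: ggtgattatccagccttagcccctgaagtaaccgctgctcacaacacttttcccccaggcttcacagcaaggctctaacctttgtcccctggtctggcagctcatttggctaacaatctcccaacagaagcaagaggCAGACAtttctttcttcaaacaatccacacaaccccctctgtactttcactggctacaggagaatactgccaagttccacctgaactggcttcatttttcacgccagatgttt
Inhbe: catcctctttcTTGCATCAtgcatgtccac

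The CAGACA match lay 113 to 108 bases before the RefSeq start of Inhbc, and the ATF4 letters lay 181 to 174 bases before that of Inhbe. Searched on both strands in windows of 250 bases before to 50 after each start, CAGACA was found in 21.0% of all 32851 RefSeq promoters, TGATGNAA in 3.97%, and the SMAD palindrome GTCTAGAC in 0.213%. Of the 10 genes, 8 had a promoter in that table, in 9 windows, while Fst and Smad7 had none and were not searched. CAGACA stood in 2 of these windows, those of Inhbc and Tgfbr1, TGATGNAA stood in 1, that of Inhbe, and GTCTAGAC stood in 0. These are matches of letters in a window and show no binding. Starts also differ between annotations: GENCODE M21 places that of Inhbc 117 bases further downstream and that of Inhbe 2563 bases further upstream, so that the Inhbe stretch falls inside a GENCODE exon.

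**Figure D1:**
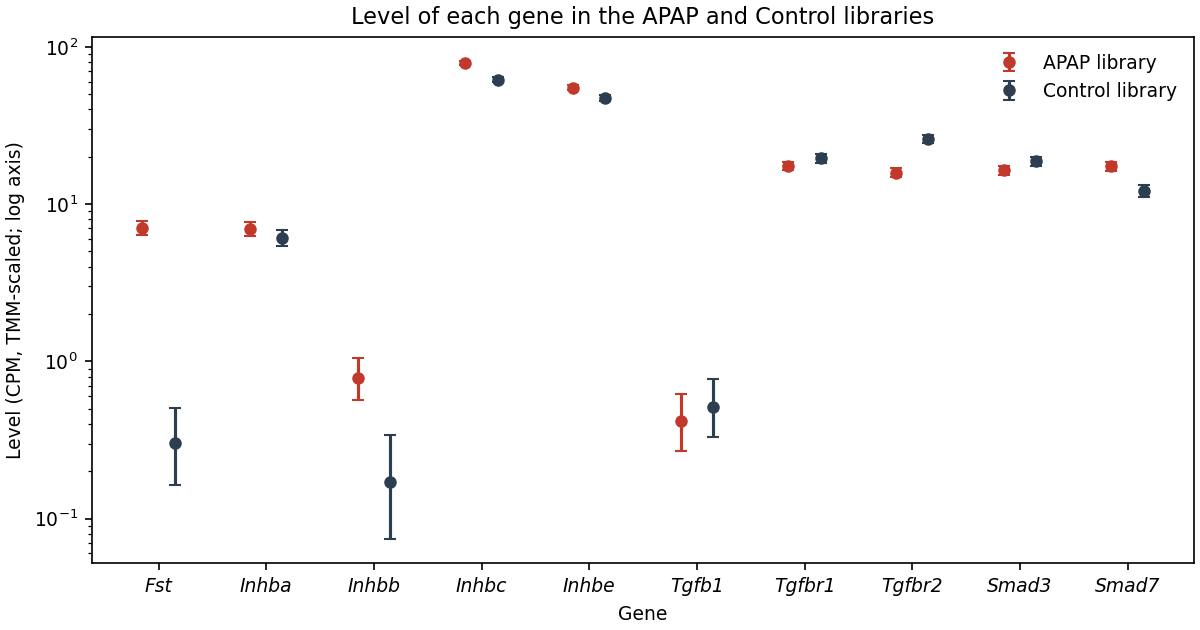
Level of each of the 10 genes in the APAP library (red, left) and the Control library (dark, right), in TMM-scaled CPM on a log axis, with 1 library per group. Bars are exact 95% Poisson intervals of the count. Fst stood at 7.08 CPM for APAP and 0.301 CPM for Control, whereas Inhba, Inhbc, Inhbe, Tgfb1, Tgfbr1, Smad3 and Smad7 lay within 1.5-fold.

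Fst (ENSMUSG00000021765), the activin trap, had the largest difference of the 10. It had 407 counts in the APAP library and 14 in the Control library, which is 7.08 CPM (6.41 to 7.80) for APAP and 0.301 CPM (0.165 to 0.505) for Control. The Control level rested on few counts, and the intervals of both levels were far apart. The fold was 23.5 (13.9 to 43.4), which placed Fst at rank 124 of the 14096 tested genes, with 0.880% of them at least as high. In bulk libraries, fewer cells of a type and less RNA per cell cannot be told apart. An antisense gene, Gm47040, shares 115 of the 4589 exonic bases of Fst in GENCODE M21 and was not listed in the count table. Summed markers of several other cell types were also higher in the APAP library. The 15 macrophage markers summed to 7.46 CPM for APAP and 0.151 CPM for Control, with 8 listed, 6 of these at 0 in the Control library, and the defining Adgre1, Clec4f and Vsig4 not listed. Most of the macrophage sum was Cd68, at 4.99 CPM for APAP and 0.0645 CPM for Control, and Cd14, at 1.36 CPM for APAP and 0.0860 CPM for Control. The 14 stellate cell and fibroblast markers summed to 11.0 CPM for APAP and 1.35 CPM for Control, of which Reln took 9.39 CPM for APAP and 0.753 CPM for Control, while Lum and Acta2 were not listed and Col1a1 had 2 counts in the APAP library and 0 in the Control library. Cholangiocyte markers, of which 5 of 10 were listed without Krt7, Krt19 and Epcam, summed to 171 CPM for APAP and 46.0 CPM for Control. Leukocyte markers went the other way, with 4 of 12 listed and sums of 0.104 CPM for APAP and 6.06 CPM for Control, nearly all of it Ighm. The part of such cells in the Fst result was not tested.

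The activin subunit genes did not differ by equal amounts. Inhbb (ENSMUSG00000037035), whose product forms activin B, had 45 counts in the APAP library and 8 in the Control library, or 0.783 CPM for APAP and 0.172 CPM for Control. It was 4.55-fold higher (2.12 to 11.2), rank 506 among the tested genes, and was the rarest subunit transcript per length in both libraries. Inhba (ENSMUSG00000041324), whose product forms activin A, had 400 counts in the APAP library and 284 in the Control library, or 6.96 CPM for APAP and 6.11 CPM for Control. Its fold was 1.14 with an interval (0.976 to 1.33) that held 1, so no difference was detectable in this scaling.

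Inhbc and Inhbe carried most of the subunit counts. Inhbc (ENSMUSG00000025405), which encodes the beta C subunit, had 4563 counts in the APAP library and 2868 in the Control library, or 79.4 CPM for APAP and 61.7 CPM for Control, a fold of 1.29 (1.23 to 1.35). Inhbe (ENSMUSG00000047492), which encodes the beta E subunit and is also known as a hepatokine gene, had 3158 counts in the APAP library and 2194 in the Control library, or 54.9 CPM for APAP and 47.2 CPM for Control, a fold of 1.16 (1.10 to 1.23). Both intervals lay above 1 and far below the 2-fold limit. Inhbc shares 268 exonic bases with the antisense gene Gm47200, which had 1 count in the APAP library and 2 in the Control library. Among the counts of all 4 subunit genes, Inhbc made up 55.9% in the APAP library and 53.6% in the Control library, and Inhbe 38.7% in the APAP library and 41.0% in the Control library. Inhba made up 4.90% in the APAP library and 5.30% in the Control library, and Inhbb 0.551% (0.402 to 0.737) in the APAP library and 0.149% (0.0645 to 0.294) in the Control library. The make-up of the subunit pool was thus close in both libraries, apart from the small Inhbb share.

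Comparing genes within a library removes the scaling between libraries, and these pairs were chosen after the values were seen. For every 100 counts of the 4 activin subunit genes there were 4.98 Fst counts in the APAP library and 0.261 in the Control library. That ratio was 19.1-fold higher in the APAP library (exact 95% interval 11.2 to 35.2). Fst thus stood much higher relative to the summed subunit genes, whose counts were mostly Inhbc and Inhbe. Beside Inhba alone, there were 407 Fst and 400 Inhba counts in the APAP library, and 14 and 284 in the Control library. Each subunit gene outside Inhbb was within 1.3-fold in TMM scaling.

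**Figure D2:**
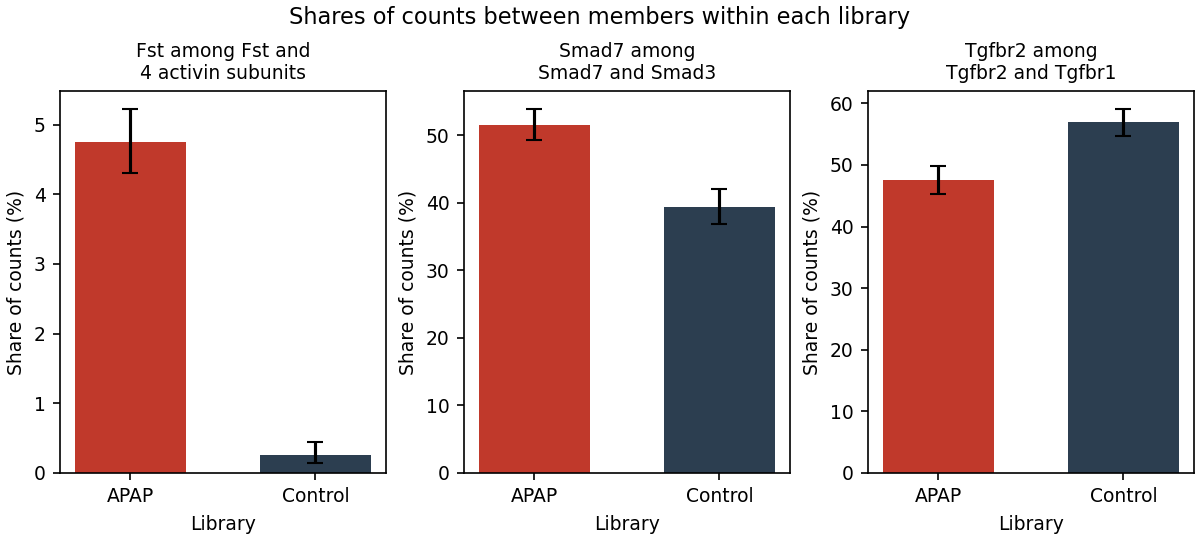
Share of counts held by the first gene of each pair or set, in percent, in the APAP library (left) and the Control library (right) of each panel, with exact 95% Clopper-Pearson intervals and axes from 0. Fst took 4.75% of its set in the APAP library and 0.261% in the Control library, Smad7 took 51.5% in the APAP library and 39.4% in the Control library, and Tgfbr2 took 47.6% in the APAP library and 56.9% in the Control library.

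Tgfb1 (ENSMUSG00000002603), the gene of the TGF-beta ligand, was rare, with 24 counts in each library, or 0.417 CPM (0.267 to 0.621) for APAP and 0.516 CPM (0.331 to 0.768) for Control. The fold was 0.809 (0.440 to 1.49), so a difference was not detectable at this depth. Tgfb3 had 7 counts in the APAP library and 0 in the Control library, and Tgfb2 was not listed. Both libraries therefore held few TGF-beta ligand transcripts.

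The receptor genes Tgfbr2 and Tgfbr1 were lower or near 1. Tgfbr2 (ENSMUSG00000032440), the type II receptor that binds TGF-beta first, had 913 counts in the APAP library and 1205 in the Control library, or 15.9 CPM for APAP and 25.9 CPM for Control, 1.63-fold lower (ratio 0.613, interval 0.562 to 0.669). Its ratio stayed below 1 in all 5 scalings tried, at most 0.779. Tgfbr1 (ENSMUSG00000007613), the type I kinase, had 1007 counts in the APAP library and 913 in the Control library, or 17.5 CPM for APAP and 19.6 CPM for Control. Its ratio was 0.892 (0.815 to 0.977) in TMM scaling and 1.13 with total counts, so its direction depended on the scaling. There were 0.907 Tgfbr2 counts per Tgfbr1 count in the APAP library and 1.32 in the Control library, a ratio of 0.687 (0.606 to 0.779). Endothelial cells also express Tgfbr2, and the 15 endothelial markers, of which 14 were listed, summed to 34.5 CPM for APAP and 23.9 CPM for Control. Of 13 that could be called, 6 were higher and 1, Stab2, was lower, beside 10.7% and 7.09% of all tested genes, and with total counts 11 were higher and 0 lower. The part of endothelial cells in the Tgfbr2 result was not tested.

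Smad7 and Smad3 differed from each other. Smad7 (ENSMUSG00000025880), the inhibitory Smad, had 1001 counts in the APAP library and 565 in the Control library, or 17.4 CPM for APAP and 12.1 CPM for Control, a fold of 1.43 (1.29 to 1.59) that lay between 1.42 and 1.82 in the 5 scalings. Smad3 (ENSMUSG00000032402), the transducer of activin and TGF-beta signals, had 941 counts in the APAP library and 870 in the Control library, or 16.4 CPM for APAP and 18.7 CPM for Control. Its ratio was 0.875 (0.797 to 0.961) in TMM scaling and 1.11 with total counts. There were 1.06 Smad7 counts per Smad3 count in the APAP library and 0.649 in the Control library, so the balance of inhibitor over transducer transcript was 1.64-fold higher (1.42 to 1.89) in the APAP library.

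**Figure D3:**
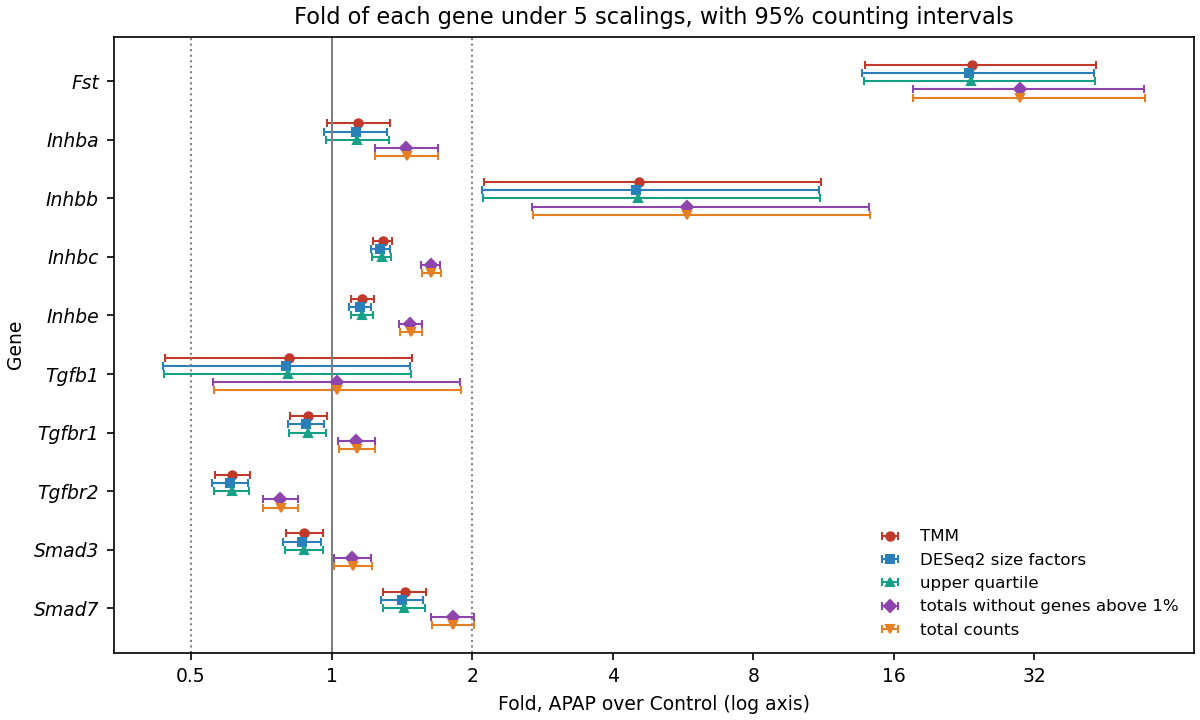
Fold of each gene, APAP over Control, on a log axis under 5 scalings, with 95% counting intervals. The solid line marks 1 and the dotted lines 2-fold in either direction. Fst and Inhbb lay above 2 in every scaling, Tgfbr2 lay below 1 in every scaling, and Tgfb1, Tgfbr1 and Smad3 lay below 1 in TMM, DESeq2 and upper quartile scaling and above 1 with totals.

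Across the 5 scalings, 6 of the 10 genes (Fst, Inhba, Inhbb, Inhbc, Inhbe and Smad7) had folds above 1 throughout, Tgfbr2 was below 1 throughout, and Tgfb1, Tgfbr1 and Smad3 crossed 1. With total counts all log2 folds shifted up by 0.35, and with totals that leave out the 18 genes holding over 1% of a library they shifted up by 0.34. These are the scalings under which the 3 genes crossed.

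Per kilobase of GENCODE M21 exon, the level of Inhbc was the highest of the 10 in both libraries, at 42.7 CPM per kb for APAP and 33.2 for Control. Inhbe followed at 10.3 CPM per kb for APAP and 8.87 for Control, a value that depends on its gene model, since the RefSeq gene of 2447 bases in place of 5319 exonic bases gives 22.4 for APAP and 19.3 for Control. In the APAP library the order went on with Smad7 at 3.85 CPM per kb, Smad3 at 2.95, Tgfbr1 at 2.68, Tgfbr2 at 1.94, Fst at 1.54, Inhba at 1.09, Inhbb at 0.184 and Tgfb1 at 0.0828. There only Smad3 and Tgfbr1 had overlapping counting intervals among neighbours. In the Control library, Smad3 at 3.38 CPM per kb, Tgfbr2 at 3.16, Tgfbr1 just under it and Smad7 at 2.69 were not separated from their neighbours by counting error. Inhba followed at 0.956, and Tgfb1 at 0.102, Fst at 0.0656 and Inhbb at 0.0404 had overlapping intervals at the low end. Fst thus stood above Inhba in the APAP library and below it in the Control library.

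Genes around these 10 were described in 7 lists by role, holding 112 genes, of which 97 were listed and 83 had enough counts to be called. Of these 83, 21 were called higher and 7 lower, beside 10.7% higher and 7.09% lower over all tested genes. Their median log2 fold was -0.01, beside 0.02 over all tested genes. These shares over all tested genes are given as the background beside each list that follows.

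**Figure D4:**
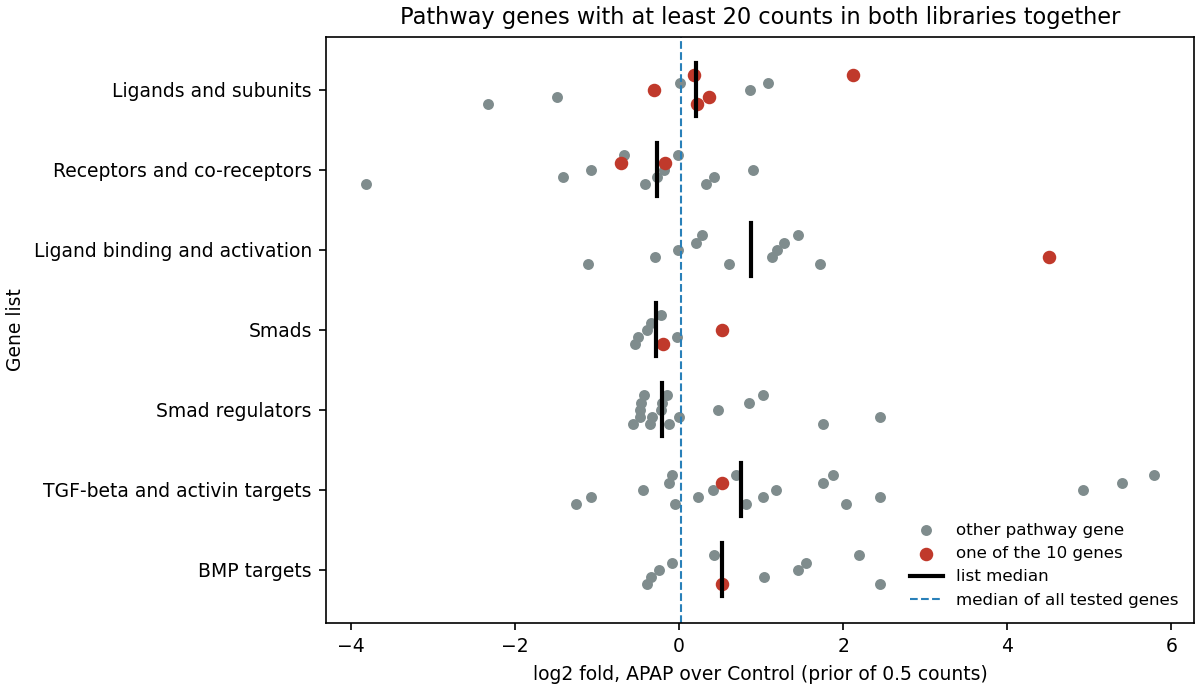
The log2 fold, APAP over Control, of every pathway gene with at least 20 counts in both libraries together, in rows by list, with the 10 genes in red, other genes in grey, a black bar at each list's median and a dashed line at the median of all tested genes. The medians were 0.87 for genes of ligand binding and activation and 0.76 for TGF-beta and activin targets, against -0.27 for receptors and -0.28 for Smads, and a gene in several lists is drawn in each.

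Among 20 ligand and subunit genes, 14 were listed and 10 could be called, 2 higher and 2 lower (background 10.7% and 7.09%), and their median log2 fold was 0.20. Beside Inhbb, Bmp2, the gene of a bone morphogenetic protein that drives hepcidin expression, was called higher, with 90 counts for APAP and 34 for Control (2.14-fold, 1.43 to 3.28). Sinusoidal endothelial cells are a known source of Bmp2. Endothelial markers were higher in sum as given above. Of the 13 that could be called, 6 were higher, among them Lyve1 and Stab1. The 1 called lower was Stab2, with 229 counts for APAP and 387 for Control. The part of such cells was not tested. Bmp7, the gene of a BMP known to oppose TGF-beta in kidney and liver injury, was 5.03-fold lower, with 72 counts for APAP and 293 for Control (ratio 0.199, 0.151 to 0.258). Bmp6, the iron-regulated BMP gene, was also called lower, with 12 counts for APAP and 28 for Control (ratio 0.347, 0.161 to 0.704). Bmp6 shares 224 exonic bases with Txndc5 on the other strand, and the strand setting of the counting was not given, so its value is uncertain.

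Among receptor and co-receptor genes, 0 were called higher in TMM scaling, the nearest being Eng, also an endothelial marker, at 1.87-fold (1.52 to 2.33). Of 17, 14 were listed and 13 could be called, 0 higher and 3 lower (background 10.7% and 7.09%), and their median log2 fold was -0.27, or 0.08 with total counts. Tgfbr3, which encodes betaglycan, a co-receptor that presents TGF-beta and lets inhibin block activin receptors, was 14.3-fold lower, with 32 counts for APAP and 370 for Control (ratio 0.0700, 0.0472 to 0.101). That was the largest difference downward among the pathway genes called. Acvr2b, an activin type II receptor gene, had 69 counts for APAP and 118 for Control (ratio 0.473, 0.346 to 0.642), and Amhr2, the anti-Müllerian hormone receptor gene, had 8 counts for APAP and 18 for Control (ratio 0.360, 0.135 to 0.869). With total counts, Tgfbr3 stayed lower, and Acvr2b and Amhr2 were no longer called.

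The main receptor genes of activin were within 2-fold. Acvr2a, the other activin type II receptor gene, had 769 counts for APAP and 830 for Control (ratio 0.749, 0.679 to 0.828, but 0.952 with total counts). Acvr1b, the type I receptor gene of activin A and B, had 585 counts for APAP and 475 for Control, a ratio of 0.996 (0.881 to 1.13). Acvr1, a BMP type I receptor gene, had a fold of 1.34 (1.21 to 1.49), Bmpr1a a ratio of 0.884 and Bmpr2 a ratio of 0.627 (0.582 to 0.676). Hfe2, which encodes hemojuvelin, the BMP co-receptor of hepatocytes, had a fold of 1.26 (1.20 to 1.33). Acvr2a shares 446 exonic bases with Orc4 on the other strand, which had 501 counts for APAP and 380 for Control.

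Genes that bind, trap or activate the ligands included Fst and several others called higher. Of 22 such genes, 18 were listed and 12 could be called, 6 higher and 1 lower (background 10.7% and 7.09%), and their median log2 fold was 0.87. After Fst, the highest was Nrros, which encodes a protein that tethers latent TGF-beta on myeloid cells, with 50 counts for APAP and 12 for Control (3.37-fold, 1.77 to 6.95). Bambi, the gene of a decoy receptor without a kinase, had 89 counts for APAP and 26 for Control (2.77-fold, 1.77 to 4.47). Lrrc32, the gene of another latent TGF-beta tether, had 46 counts for APAP and 16 for Control (2.33-fold, 1.29 to 4.40), and Chrd, the gene of the BMP trap chordin, had 389 counts for APAP and 143 for Control (2.20-fold, 1.81 to 2.68). Chrd shares 239 exonic bases with Thpo on the other strand, which was also higher, at 939 counts for APAP and 407 for Control. The proteoglycan gene Bgn was the sixth gene called higher.

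Furin, whose product cleaves the precursors of TGF-beta family ligands, had the most counts of the ligand-binding list, with 17674 counts for APAP and 14432 for Control and a ratio of 0.991 (0.969 to 1.01). Next came Itgav, which encodes an integrin chain that helps to free latent TGF-beta, with 1610 counts for APAP and 1123 for Control (1.16-fold, 1.07 to 1.25). Fstl3, the relative of Fst, had 8 counts for APAP and 0 for Control, too few to be called. Myeloid cells express Nrros and endothelial cells express Lrrc32. Summed macrophage and endothelial markers were higher in the APAP library as given above. Summed leukocyte markers, nearly all Ighm, were lower, and Ptprc and Itgam were not listed. The part of myeloid and endothelial cells was not tested.

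None of the 8 Smad genes was called in either direction (background 10.7% and 7.09%). Smad7 was the single Smad gene with an interval wholly above 1, that of Smad1 held 1 (ratio 0.982, 0.886 to 1.09), and the other 6 lay below 1 in TMM scaling, with a list median log2 fold of -0.28 that became 0.07 with total counts. Smad4, the shared partner, had a ratio of 0.707 (0.654 to 0.763) and Smad2 a ratio of 0.692 (0.629 to 0.762). Smad6, the inhibitory Smad of the BMP branch, had 228 counts for APAP and 234 for Control (ratio 0.788, 0.654 to 0.950), in contrast to Smad7.

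Of 20 regulators of Smad activity, 18 were listed and 17 could be called, 3 higher and 0 lower (background 10.7% and 7.09%), and their median log2 fold was -0.21, or 0.14 with total counts. Pmepa1, which encodes a membrane protein that holds receptor Smads away from the receptor, had 97 counts for APAP and 14 for Control (5.60-fold, 3.18 to 10.6). Skil, the gene of the Smad corepressor SnoN, had 1823 counts for APAP and 437 for Control (3.37-fold, 3.04 to 3.75). Tgif1, the gene of another corepressor, had 783 counts for APAP and 312 for Control (2.03-fold, 1.78 to 2.32) and lay just inside the limit. All 3 are both inhibitors of Smad signalling and known TGF-beta targets. The most counts of the list belonged to Ppm1a, a phosphatase gene, with a ratio of 0.680, and the ubiquitin ligase gene Wwp1, with a ratio of 0.723. The Smurf1 and Smurf2 ligase genes, whose products Smad7 brings to the receptor, had ratios of 0.727 and 0.722. The ligase gene Nedd4l went the other way, with 3835 counts for APAP and 1716 for Control (1.81-fold, 1.71 to 1.91). With total counts, 4 genes of the list were called higher.

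TGF-beta and activin target genes held several of the larger folds. Of 24 genes, 23 were listed and 20 could be called, 9 higher and 1 lower (background 10.7% and 7.09%), and their median log2 fold was 0.76. Ccn2, the connective tissue growth factor gene, had 75 counts for APAP and 1 for Control, a ratio of 60.7 with a wide interval (10.6 to 2428). Cdkn1a, the gene of the cell cycle inhibitor p21, which p53 also drives, had 4549 counts for APAP and 66 for Control (55.8-fold, 43.7 to 72.2). The Control library held few transcripts of both genes. Fn1, the fibronectin gene, was 2.28-fold higher (2.26 to 2.30) at 4779 CPM for APAP and 2097 CPM for Control. Tgm2, a transglutaminase gene, was 3.68-fold higher (3.54 to 3.83), and shares 370 exonic bases with Rprd1b on the other strand. Snai1, the gene of a transcriptional repressor, had 22 counts for APAP and 4 for Control (4.45-fold, 1.51 to 17.8). Pmepa1, Skil and Tgif1 are in this list too. Stellate cells and fibroblasts also express Ccn2 and Fn1. Their summed markers, mostly Reln, stood at 11.0 CPM for APAP and 1.35 CPM for Control, and their part was not tested.

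Of the 20 target genes that could be called, 14 had intervals wholly above 1 and 3 wholly below 1 in TMM scaling. Genes above 1 that were not called included Snai2 at 1.77-fold (1.44 to 2.19) and Col4a1 at 1.62-fold (1.46 to 1.79). Some other genes of that list were near 1 or lower. Ccn1, the gene of a matricellular protein that YAP also drives, had 1266 counts for APAP and 2156 for Control (ratio 0.475, 0.443 to 0.509), a call lost with total counts. Klf10 had a ratio of 0.923 (0.802 to 1.06), Junb one of 0.939 and Col4a2 one of 0.967 (0.892 to 1.05), and each of these lay above 1 with total counts. Many of these genes answer other signals too, so their counts describe the list and do not measure Smad activity.

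BMP target genes were described in the same way. Of 11 genes all were listed and could be called, 5 higher and 0 lower (background 10.7% and 7.09%), and their median log2 fold was 0.52. Id1, the gene of a helix-loop-helix inhibitor, had 238 counts for APAP and 35 for Control (5.50-fold, 3.85 to 8.09), and Id4 had 19 counts for APAP and 3 for Control (ratio 5.12, 1.51 to 27.0). Hamp, the hepcidin gene, which interleukin 6 also drives, was 2.93-fold higher at 951 CPM for APAP and 325 CPM for Control. That value is uncertain because Hamp2 is a close copy and counting could split their reads. Hamp had 54673 counts for APAP and 15115 for Control, and Hamp2 had 133 for APAP and 127 for Control. Atoh8, the gene of a transcription factor known to act on hepcidin, was 2.06-fold higher (1.92 to 2.20), just inside the limit. Id2, second to Hamp in counts, was below 1 at 0.945 (0.904 to 0.987) in TMM scaling and above 1 with total counts, and Smad6 was below 1 as given above.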

How the data were processed

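RNA was sequenced from 2 libraries of sorted hepatocytes, prepared by Tecan mRNA-seq chemistry per the labels' protocols. HISAT2 and Subread were used with build mm39, per the submitters' processing notes. Versions, annotation, strand setting and pair handling are not given in the sources used here. Deposited were raw counts per Ensembl gene and a normalized signal, which the authors made by dividing each count by 1 size factor per library (1.12 for APAP, 0.894 for Control, equal to DESeq2 size factors computed from the counts). All values here start from the counts. Symbols matched 20679 of 20823 identifiers.

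Counts were scaled with TMM (edgeR 4.0.16, R 4.3.3), with factors of 1.13 for APAP and 0.887 for Control. Fold intervals are exact conditional Poisson (Clopper-Pearson) intervals and levels carry exact Poisson intervals (scipy 1.17.1). They cover counting error only, since each group was 1 library. Reads also carry no molecular identifiers. Counts from 1 to 20 were even in 70.6% of cases for APAP and 68.3% for Control, which would make the intervals too narrow if both mates of a pair were counted. The log2 fold of a list uses a prior of 0.5 counts, and medians cover genes with at least 20 counts in both libraries together. Steps were tested on simulated data. The genes, lists, rules and alternatives were chosen with earlier results of these data known. Named genes were the 10 genes and, of each list, the 3 called genes with the highest and the 3 with the lowest fold, the 2 with most counts, and their receptor, Smad or antagonist partners. Bgn, Fstl3, Tgfb2, Tgfb3, Smurf1, Smurf2, Nedd4l, Klf10, Junb, Col4a1, Col4a2, Snai1 and Snai2 were named outside this rule, after their values were seen. Some genes that the rule names are not reported here. Exon lengths and overlaps are from GENCODE M21 (GRCm38) and promoters from RefSeq (GRCm38.p6), another build than mm39. Alternatives were 4 other scalings (DESeq2 1.42.0 for 1 of them), halved counts, count minimums of 10, 50 or none, folds of 1.5 and 3, and a prior of 5.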

Additional observations from a re-analysis of the deposited data

How the results depend on the processing

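The calls of Fst and Inhbb as higher held under all 10 alternatives tried for them. Of these, the lower count minimums and the fold limit of 1.5 loosen the rule and could not have removed a call. With counts halved for the interval, the lower limit was 11.2 for Fst and 1.55 for Inhbb. The interval of Tgfbr1 then held 1 (0.785 to 1.01), and that of Smad3 lay barely below 1 (0.766 to 0.999). Scaling by DESeq2 size factors and by upper quartile gave folds of the 10 genes inside their counting intervals. With total counts the folds were 1.45 for Inhba, 1.63 for Inhbc, 1.48 for Inhbe, 1.13 for Tgfbr1, 0.779 for Tgfbr2, 1.11 for Smad3 and 1.82 for Smad7. With totals without genes above 1% they were 1.44, 1.63, 1.48, 1.13, 0.777, 1.11 and 1.82 in the same order, and the interval of Inhba then lay above 1. At a fold limit of 1.5, Tgfbr2 was called lower at its ratio of 0.613. Over all genes, 2435 were called higher and 626 lower with total counts, 2423 and 629 with totals without genes above 1%, 2485 and 1843 at a fold of 1.5, and 856 and 502 at a fold of 3, against 1513 higher and 999 lower as reported. The share of higher among called genes was 60.2% as reported, 79.5% with total counts and 79.4% with totals without genes above 1%. With either of these totals, 1 receptor gene (Eng) was called higher and 1 lower, and 0 binding genes and 0 target genes were called lower. With DESeq2 or upper quartile scaling, 2 target genes were called lower, Tgfbi being added at 8 counts for APAP and 16 for Control. With a minimum of 50 counts, 1 ligand gene was called lower. The median log2 fold of the ligand-binding list was 1.14 with a minimum of 10 counts, 1.17 with one of 50 and 0.76 with a prior of 5, against 0.87. Halved counts were not run for the lists. No paired analysis was possible because each group has 1 library. Depth limits Tgfb1, Tgfb3, Fstl3 and Snai1, which had few counts. It also limits the calls of Id4, Amhr2, Bmp6 and Inhbb, the last with 45 counts for APAP and 8 for Control. Ccn2 had 1 count in the Control library.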
